A study of Mus musculus with 8 samples.

Results

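Complement is a cascade of plasma proteins that tags and lyses targets, and the liver is the main source of most of its components. The 31 genes described here code for its recognition molecules, proteases, C3 and C5 step proteins, membrane attack proteins, regulators and anaphylatoxin receptors, and they were chosen by name from general knowledge of the pathway out of 27962 gene names on the array. All 31 had a probe, C7 under the clone name A530026G17, and 29 were detected. Detected means well above background, positive and free of outlier marks on at least 3 of the 4 arrays of a diet. By the cell type known to make them in liver, 20 were grouped as hepatocyte-made, 6 as macrophage-made (C1qa, C1qb, C1qc, Cfp, C3ar1 and C5ar1) and 5 as neither (Cfd, C7, Cd46, Cd55 and Cd59a).

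Liver total RNA came from male wild-type mice, C57BL/6 in the sample labels and C57BL/6J in the study's methods, that were 14 to 17 weeks old when the experiment began. For 4 weeks, 4 mice received standard chow (the STD diet) and 4 received the ATH diet, an atherogenic feed high in fat and cholesterol that also contained cholic acid, so that fat, cholesterol and bile acid cannot be told apart. Each mouse gave 1 Cy3-labelled sample on 1 Agilent array, and arrays are numbered within a diet by the replicate in their label. The 4 STD arrays lay on 1 slide and the 4 ATH arrays on another, so that slide, scan and diet cannot be told apart in any comparison below. Of 19 hepatocyte marker genes, which check the tissue label, the 18 with a probe were all detected.

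The cascade can start by the classical, lectin or alternative pathway. In the classical pathway C1q, built from A, B and C chains, binds a target and switches on the proteases C1r and C1s. In the lectin pathway mannose-binding lectins do the same with the MASP proteases, and the alternative pathway runs through factors B and D and properdin. All meet at C3, and C5 to C9 then form the membrane attack pore. Hepatocytes secrete most of these proteins into plasma, whereas C1q and properdin come largely from macrophages and other myeloid cells, which in liver include the resident Kupffer cells.

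The 3 C1q chain genes and Cfp, the properdin gene, were higher on every ATH array than on any STD array, so the promoters of those with an entry in the RefSeq table of mouse assembly GRCm38.p6 are shown, 250 bases before to 50 after the start site, 5′ to 3′ on the gene's strand. Capitals mark GAGGAA or its reverse complement TTCCTC, a core letter pattern of the ETS factor PU.1 of myeloid cells. C1qb lies at chr4:136886151-136886450 (minus strand), C1qc at chr4:136892865-136893164 (minus strand) and Cfp at chrX:20931506-20931805 (minus strand).
C1qb: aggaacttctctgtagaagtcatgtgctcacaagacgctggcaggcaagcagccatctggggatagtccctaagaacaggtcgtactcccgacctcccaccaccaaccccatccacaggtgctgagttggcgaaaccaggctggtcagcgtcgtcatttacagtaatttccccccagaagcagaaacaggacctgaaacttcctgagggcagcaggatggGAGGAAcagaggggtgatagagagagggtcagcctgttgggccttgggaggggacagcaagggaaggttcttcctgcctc
C1qc: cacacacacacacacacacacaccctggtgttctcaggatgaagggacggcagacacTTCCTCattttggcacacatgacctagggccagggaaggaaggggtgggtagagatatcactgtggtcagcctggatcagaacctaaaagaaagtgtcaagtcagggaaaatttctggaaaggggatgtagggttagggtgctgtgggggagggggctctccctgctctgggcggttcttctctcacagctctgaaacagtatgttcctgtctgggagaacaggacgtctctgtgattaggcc
Cfp: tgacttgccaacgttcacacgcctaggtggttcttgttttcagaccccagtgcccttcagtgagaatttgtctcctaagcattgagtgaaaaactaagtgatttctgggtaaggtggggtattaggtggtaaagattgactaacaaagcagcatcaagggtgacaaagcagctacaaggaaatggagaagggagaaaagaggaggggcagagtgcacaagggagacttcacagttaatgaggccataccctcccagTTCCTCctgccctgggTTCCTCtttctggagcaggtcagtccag

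Counted from the start site, with negative numbers before it and no base 0, the pattern begins at base -30 in C1qb, at -193 in C1qc, and at 7 and 23 in Cfp. It was searched on both strands, and 28.3% of all 32851 promoters of this length hold it. Of the 23 members with a promoter in the table, 5 hold it, the other two being C1ra and Cd59a. A different pattern, GTTAAT, a stretch of the site of the hepatocyte factor HNF1, was found on either strand in 7.1% of all promoters and in those of 8 members, C1ra, C4bp, C7, C8a, C8b, Cd55, Cfp and Hc.

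Values below are scaled log2 signals, in which 0 is the 75th percentile of all non-control probes on the same array. Signals of different probes are not on 1 scale, and genes are therefore compared by their difference between diets, ATH minus STD, given ± SE from limma with n = 4 arrays per diet. Before scaling the 75th percentile was 0.45 higher on the ATH arrays and the spike-in probes were 0.14 higher. The median difference over 21304 detected genes was -0.15 after scaling, 0.30 with no scaling, 0.16 with spike-in scaling and -0.04 with quantile normalization, and small differences between diets have to be read against these. With the false discovery rate held to 5% in limma, 2482 of 31063 detected probes differed, 38.2% of them higher on the ATH diet, and that share was 54.3% with quantile normalization, 55.0% with median scaling, 86.4% with spike-in scaling, 94.9% with no scaling and 18.9% with normexp background correction. From 72.3% to 77.8% of spots on an array were well above background, and no member's probe was saturated.

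Of the 29 detected members, 1 passed 5% as higher on the ATH diet (Cfp) and 1 as lower (Mbl1). Each is 3.45% of the members, against 3.53% of all genes called higher and 5.24% called lower, so the share of complement genes called was near that of the array as a whole. With the replicate number as a block, neither passed (adjusted p = 0.0606 for Cfp and 0.0719 for Mbl1), and the members with an unadjusted p under 0.05 were 5 higher and 4 lower both with the block and without it. On 4 members all ATH arrays lay above all STD arrays (C1qa, C1qb, C1qc and Cfp), which is 13.8% of the members where all genes gave 6.74%. On another 4 all ATH arrays lay below (Mbl1, Mbl2, C3 and C8b), also 13.8%, where all genes gave 14.4%.

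**Figure D1:**
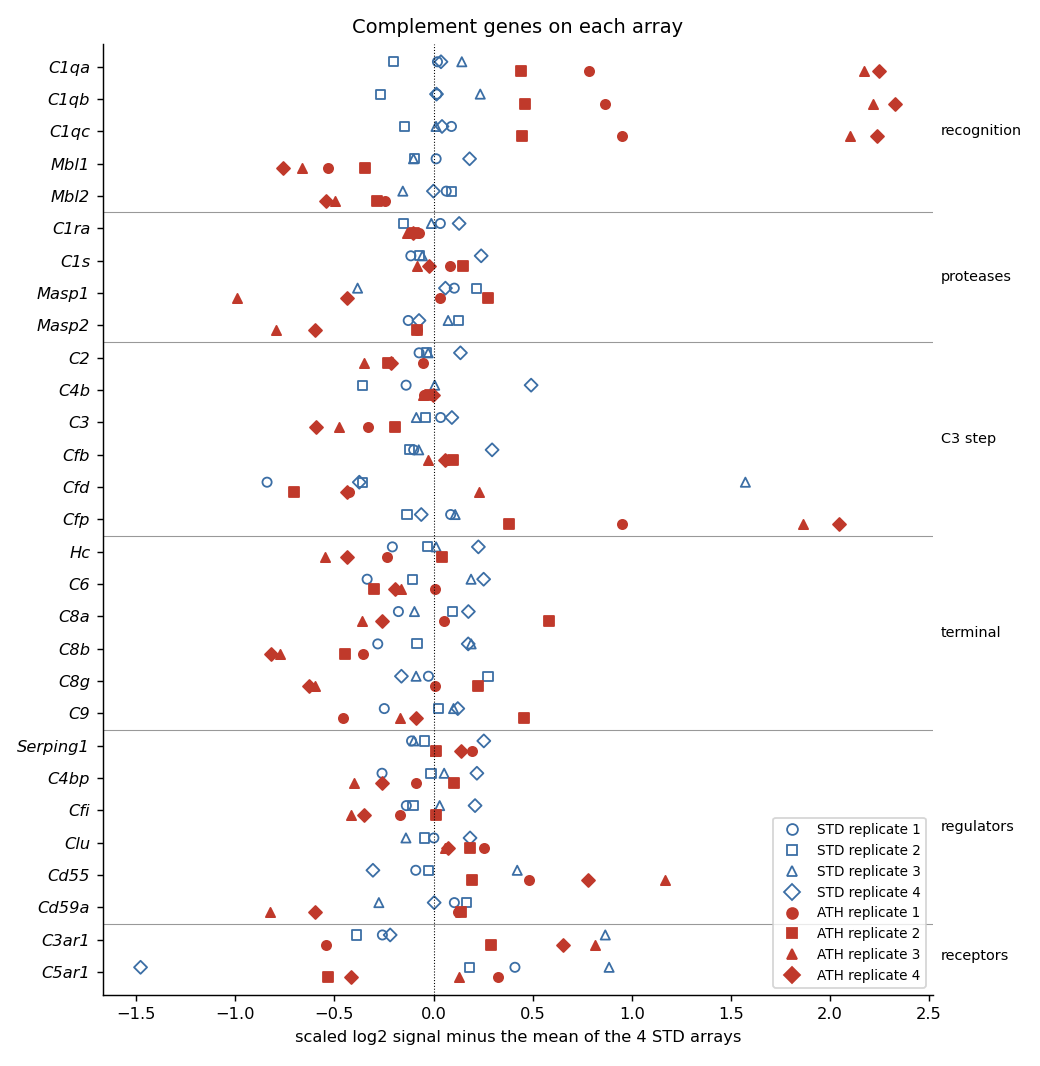
Each of the 29 detected complement genes is a row, grouped by role. The horizontal axis is the scaled log2 signal on an array minus the mean of the 4 STD arrays, with open symbols for STD arrays and filled symbols for ATH arrays. The 3 C1q chains and Cfp lie to the right on every ATH array, from 0.38 to 2.33, and most other genes stay within 1 unit of 0.

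Of the 5 recognition molecules only Mbl1 passed 5%, as lower, and with the replicate block none did. C1qa, C1qb and C1qc lie side by side on chromosome 4, where their probes sit at 136274931 to 136274990, 136259100 to 136259159 and 136268288 to 136268347 of the array design's assembly, mm7. C1qa measured 1.94, 1.72, 2.06 and 1.95 on the STD arrays and 2.70, 2.36, 4.09 and 4.16 on the ATH arrays. C1qb measured 1.11, 0.83, 1.33 and 1.11 on the STD diet and 1.96, 1.56, 3.31 and 3.42 on the ATH diet. C1qc measured 3.04, 2.80, 2.96 and 2.99 on the STD diet and 3.90, 3.39, 5.05 and 5.19 on the ATH diet.

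In all 3 genes the lowest ATH array was above the highest STD array, and ATH replicates 3 and 4 stood far above replicates 1 and 2. The log2 differences were 1.41 ± 0.40 (SE, n = 4 per diet) for C1qa, 1.47 ± 0.41 for C1qb and 1.43 ± 0.38 for C1qc, or 2.66-fold, 2.77-fold and 2.70-fold. None passed 5% by limma after scaling to the 75th percentile, with adjusted p of 0.0620, 0.0594 and 0.0510. All 3 passed with no scaling, spike-in scaling and normexp background correction, with limma adjusted p from 0.0223 to 0.0489. Of 21 alternative settings C1qa passed under 4, C1qb under 5 and C1qc under 8. Without ATH replicate 2, the lowest of the ATH arrays, all 3 passed, with adjusted p from 0.010 to 0.0170, and with any other array left out they ranged from 0.0580 to 0.139. Their sign stayed positive under the 6 other scalings and background corrections, from 1.38 to 1.92.

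Among the ATH mice these genes varied more than among the STD mice, which was not tested. The SD of C1qa was 0.14 on the STD diet and 0.93 on the ATH diet, and the medians over the 3 chains and Cfp were 0.13 and 0.90. Over all detected genes the median SD was 0.20 on the STD diet and 0.28 on the ATH diet, and over the hepatocyte-made complement genes it was 0.17 and 0.18. Each of the macrophage markers described below also had a larger SD on the ATH diet. Their SDs ran from 0.05 (Fcgr1) to 0.75 (Marco) on the STD diet and from 0.38 (Clec4f) to 1.69 (Marco) on the ATH diet.

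Mbl1 codes for mannose-binding lectin A, a hepatocyte-made recognition molecule of the lectin pathway, and its probe spans 38581074 to 38583660 on chromosome 14 (mm7). It measured 5.40, 5.29, 5.28 and 5.57 on the STD arrays and 4.85, 5.04, 4.72 and 4.63 on the ATH arrays, with every ATH value below every STD value. It fell by 0.57 ± 0.14 on the log2 scale (SE, n = 4 per diet), 1.49-fold, with a limma adjusted p of 0.0404. The difference kept its sign under the 6 other scalings and background corrections but was as small as -0.13 with no scaling, and it passed 5% under 6 of 21 alternative settings. With 1 array left out it passed only without ATH replicate 2 (adjusted p = 0.0208), and the other arrays left out gave 0.0617 to 0.104.

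Mbl2, which codes for the related lectin C, gave 8.08, 8.10, 7.86 and 8.01 on the STD arrays and 7.77, 7.73, 7.51 and 7.47 on the ATH arrays. The groups did not overlap, and the difference of -0.39 ± 0.13 did not pass 5% (adjusted p = 0.0840) and turned to 0.05 with no scaling. Within an array, where a constant added to all probes drops out, the signal of Mbl1 minus that of Mbl2 averaged -2.63 ± 0.16 (SD, n = 4) on the STD diet and -2.81 ± 0.09 on the ATH diet, and the diets overlapped.

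The 4 proteases that act beside these molecules did not pass 5% by limma in either direction, and 0 of them had an unadjusted p under 0.05. C1ra, coding for C1r, differed by -0.10 (95% interval -0.35 to 0.15) and C1s by 0.03 (-0.26 to 0.32). C1ra became 0.35 with no scaling, 0.21 with spike-in scaling and 0.18 with quantile normalization, whereas C1s stayed above 0 under all 6 other scalings and background corrections and passed 5% with no scaling, at 0.48 (adjusted p = 0.0219). Masp1 and Masp2, the lectin pathway proteases, differed by -0.28 (-0.90 to 0.34) and -0.39 (-0.81 to 0.03), and both were above 0 with no scaling, Masp1 also with spike-in scaling. In both, ATH replicates 3 and 4 gave the lowest values of the 8 arrays, 3.25 and 3.81 for Masp1 and 4.81 and 5.01 for Masp2.

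The probes of Masp1 gave differences of both signs. Its 4 detected probes ranged from -0.33 to 0.26, and the probe used here is the brightest. C1r also has a close copy in mouse, C1rb, and a second, dimmer probe filed under the C1r name gave -0.32.

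C1q and its proteases form 1 complex, so their relation was read within each array. C1qc minus C1ra measured -2.13, -2.18, -2.16 and -2.27 on the STD arrays and -1.16, -1.64, 0.05 and 0.16 on the ATH arrays. The groups did not overlap, and the ATH mean was 1.53 higher. C1qc minus C1s was 1.40 higher on the ATH diet, also without overlap. C1ra minus C1s differed by -0.13, with STD values from -0.36 to -0.10 and ATH values from -0.49 to -0.30. Among the chains, C1qb minus C1qa was -0.82 on the STD diet (SD 0.07, n = 4) and -0.77 on the ATH diet (SD 0.03), and C1qc minus C1qa was 1.03 ± 0.09 and 1.05 ± 0.10.

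**Figure D2:**
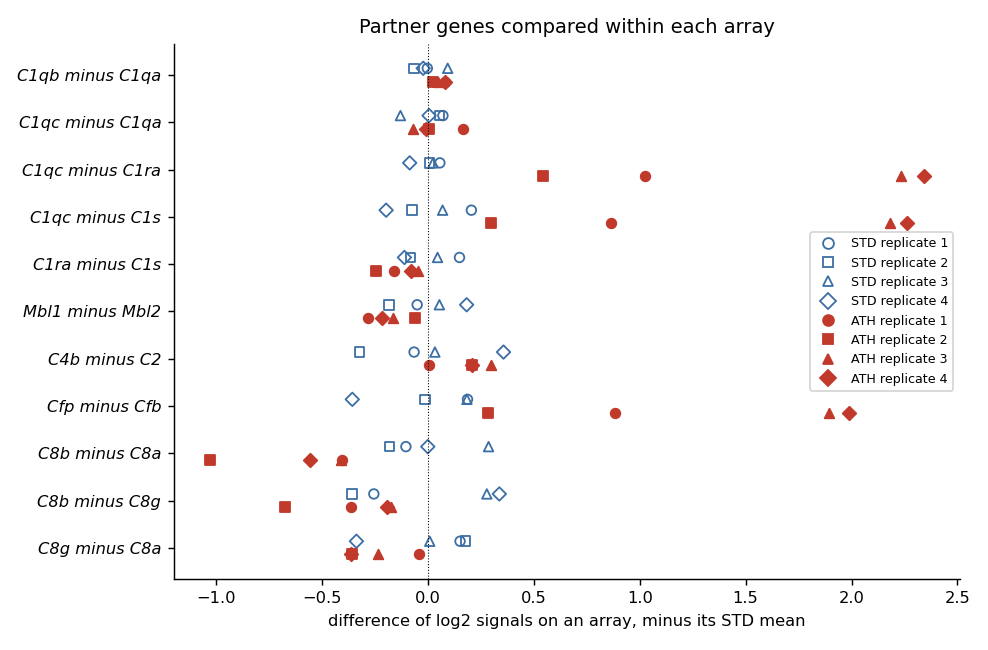
Each row is the difference of 2 genes' log2 signals on the same array, minus its mean over the 4 STD arrays, so that any constant added to an array cancels out. The C1q chains stay near 0 against each other, C1qc is higher against C1ra and C1s on all 4 ATH arrays, and C8b is lower against C8a on all 4 ATH arrays.

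At the C3 step only Cfp passed. Its product, properdin, stabilises the alternative C3 convertase, and its probe lies at 19358766 to 19358825 on chromosome X (mm7). Cfp measured 2.71, 2.49, 2.73 and 2.56 on the STD arrays and 3.57, 3.0, 4.48 and 4.67 on the ATH arrays. The groups did not overlap, and again ATH replicates 3 and 4 were the highest. It rose by 1.31 ± 0.34 on the log2 scale (SE, n = 4 per diet), 2.48-fold, with a limma adjusted p of 0.0496. It passed 5% under 8 of 21 alternative settings and was higher in all of them, from 1.07 to 1.76. Without ATH replicate 2 its adjusted p was 0.00827, and with any other array left out 0.0618 to 0.115.

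Cfb, coding for factor B, the catalytic subunit of the convertase that properdin holds together, differed by 0.05 (95% interval -0.25 to 0.34), but by 0.36 with spike-in scaling, 0.48 with quantile normalization and 0.50 with no scaling, where it passed 5% (adjusted p = 0.0282). Cfp minus Cfb within an array averaged -5.75 ± 0.26 on the STD diet and -4.49 ± 0.82 on the ATH diet (SD, n = 4), and the diets did not overlap. C3, the component at which the pathways meet, measured 9.88, 9.80, 9.76 and 9.93 on the STD arrays and 9.51, 9.65, 9.36 and 9.25 on the ATH arrays. All ATH values were below all STD values, but the difference of -0.40 ± 0.13 did not pass 5% (adjusted p = 0.0844), and it turned to 0.05 with no scaling and 0.07 with quantile normalization. A second, much dimmer C3 probe gave 0.09.

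C2 and C4b, which form the classical and lectin convertase, differed by -0.21 and -0.03, did not pass, and were above 0 with no scaling, spike-in scaling and quantile normalization, C4b also with median scaling. The ATH arrays were within 7.01 to 7.06 for C4b, whereas the STD arrays ran from 6.70 to 7.56. C4b has a near-identical copy, C4a, and signals of the 2 may be shared. Cfd, coding for factor D or adipsin, a protease best known from fat tissue, measured -1.78, -1.30, 0.64 and -1.31 on the STD arrays and -1.36, -1.64, -0.71 and -1.37 on the ATH arrays. STD replicate 3 was the highest of the 8, and the diet difference of -0.33 ± 0.48 turned to 0.19 without it and to 0.11 with no scaling. Of 9 adipocyte marker genes 8 were detected, and their median shift from the STD mean was -0.11, 0.09, 0.06 and -0.12 on STD replicates 1 to 4. Car3, which liver itself expresses, gave most of the summed signal of these 8, at 204 to 316 in units of the 75th percentile on the STD arrays and 60.1 to 252 on the ATH arrays. Adipoq, the adiponectin gene, measured -3.30, -3.28, -3.18 and -3.72 on the STD arrays and -4.28 to -3.57 on the ATH arrays. Of the STD arrays replicate 3 was the highest for Adipoq and Cidea but the lowest for Plin1, Fabp4 and Pparg. For Car3, Lipe and Retn it was neither. Lep, the leptin gene, was the 1 marker not detected. Of the 8 detected, 7 were lower on the ATH diet, 1 past 5%, and Fabp4, a fatty acid binding protein gene, was higher by 0.58. Over all detected genes 66.2% were lower and 5.24% passed 5% as lower. The part of fat tissue in the Cfd value was not tested.

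None of the 6 detected terminal components passed 5% by limma, and 1 had an unadjusted p under 0.05. This was C8b, coding for the C8 beta chain, which measured 5.05, 5.25, 5.52 and 5.50 on the STD arrays and 4.97, 4.88, 4.56 and 4.51 on the ATH arrays. Its groups did not overlap, its difference was -0.60 ± 0.17 (adjusted p = 0.0589), and it kept its sign under the 6 other scalings and background corrections, from -0.63 to -0.15. C8b minus C8a, the alpha chain gene that lies next to it on chromosome 4, averaged -1.16 ± 0.20 (SD, n = 4) on the STD diet and -1.77 ± 0.29 on the ATH diet without overlap. C8b minus C8g, the gamma chain gene on chromosome 2, differed by -0.35 and overlapped. The differences of C8a and C8g themselves were 0.003 ± 0.21 and -0.25 ± 0.22, that of C8a below 0 with the percentile taken over spots and that of C8g above 0 with no scaling, spike-in scaling and quantile normalization.

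Hc, the gene of C5, differed by -0.29 ± 0.16, C6 by -0.16 ± 0.16 and C9, which forms the pore wall, by -0.06 ± 0.20. All 3 were above 0 with no scaling, spike-in scaling and quantile normalization, C9 also with median scaling. C7 was above background on 1 STD array and no ATH array, and no fold is given for it.

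Of the 6 detected regulators none passed 5% by limma after scaling to the 75th percentile, and 1, Cd55, had an unadjusted p under 0.05. Serping1, the C1 inhibitor gene, and Clu, coding for clusterin, which blocks pore assembly, differed by 0.09 ± 0.13 and 0.14 ± 0.12 and stayed above 0 under the 6 other scalings and background corrections. With no scaling both passed 5%, Serping1 at 0.53 (adjusted p = 0.0287) and Clu at 0.59 (adjusted p = 0.0149), and Clu also passed with quantile normalization at 0.52 (adjusted p = 0.0412). C4bp, a cofactor for breakdown of C4b, and Cfi, the protease that inactivates C3b and C4b, differed by -0.16 ± 0.16 and -0.23 ± 0.14, and both were above 0 with no scaling, spike-in scaling and quantile normalization. Cd55, coding for the membrane protein that dissociates convertases, measured -2.29, -2.22, -1.77 and -2.50 on the STD arrays and -1.71, -2.0, -1.03 and -1.42 on the ATH arrays. It differed by 0.66 ± 0.23 (adjusted p = 0.109) with an overlap at STD replicate 3, a second detected probe gave 0.48, and it was higher under the 6 other scalings and background corrections, passing 5% with no scaling at 1.10 (adjusted p = 0.0285). Cd59a, whose product blocks C9, differed by -0.29 ± 0.24 and was above 0 with no scaling and with spike-in scaling. The last regulator, Cd46, a membrane cofactor gene, was above background on only 1 of 8 arrays, an ATH array.

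The receptors are made by macrophages and other myeloid cells, as C1q is, and neither passed 5% by limma or had an unadjusted p under 0.05. C3ar1, the C3a receptor gene, measured -3.81, -3.94, -2.68 and -3.77 on the STD arrays and -4.09, -3.26, -2.74 and -2.90 on the ATH arrays. The diets overlapped and the difference of 0.30 (95% interval -0.51 to 1.12) did not pass, while its second detected probe gave 0.69 and normexp turned the difference to -0.04. C5ar1, the C5a receptor gene, was well above background on 3 STD and 2 ATH arrays, and its difference of -0.12 (-1.18 to 0.93) turned positive with no scaling, spike-in scaling and quantile normalization. Whether the receptors differ from the C1q chains in their response was not tested.

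**Figure D3:**
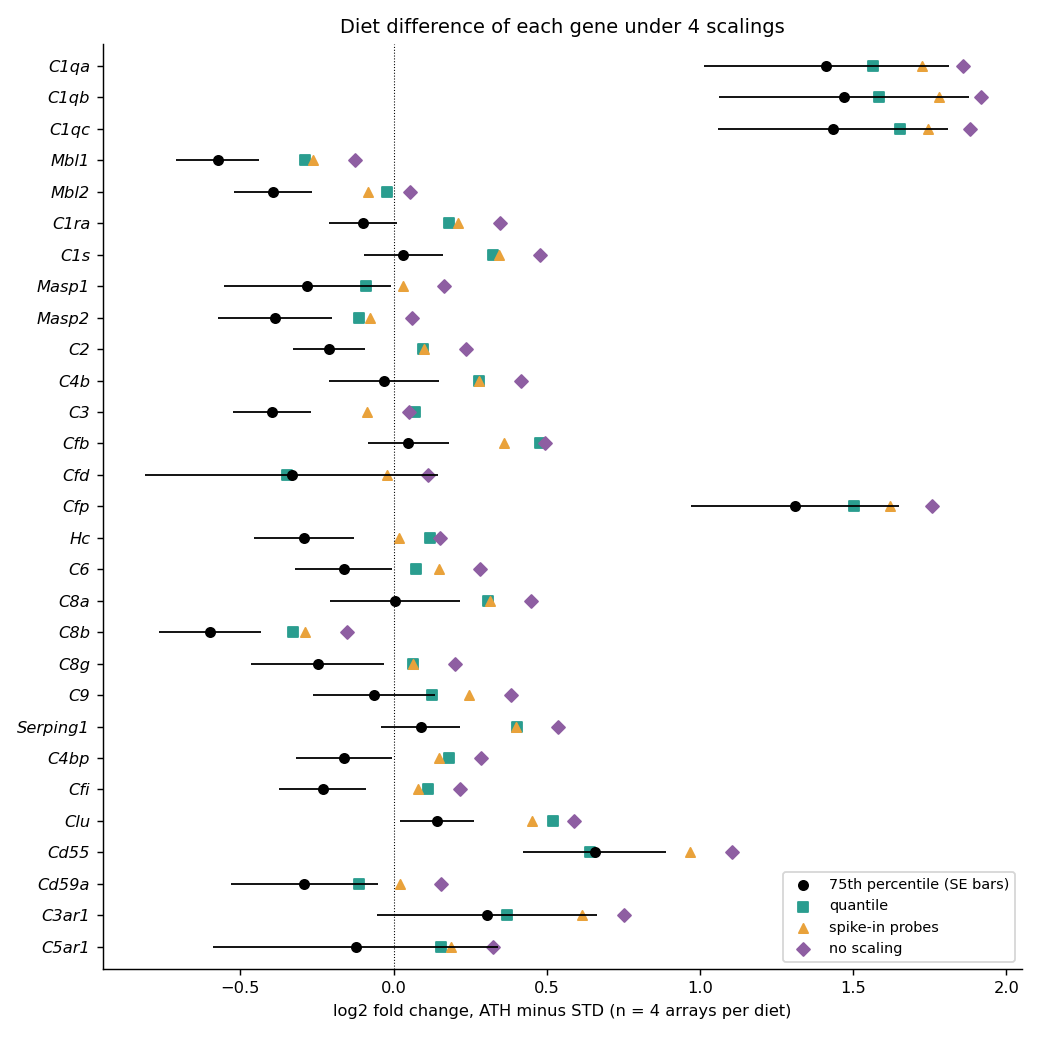
The horizontal axis is the log2 fold change, ATH minus STD, of each detected gene with the signal scaled to the 75th percentile (black, bars are SE, n = 4 arrays per diet), by quantile normalization, by spike-in probes or not at all. The C1q chains, Cfp and Cd55 lie right of 0 and Mbl1 and C8b left of 0 under all 4. C3ar1 and the hepatocyte-made C1s, Cfb, C8a, Serping1 and Clu also lie right of 0 under all 4, while most hepatocyte-made genes cross 0.

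By source, the macrophage-made genes were 5 of 6 higher with a median difference of 1.36, and the hepatocyte-made genes were 15 of 20 lower with a median of -0.19. Over all detected genes 66.2% were lower and the median was -0.15, so the hepatocyte-made genes were close to the array as a whole. Their median was 0.26 with no scaling (18 of 20 higher), 0.12 with spike-in scaling and 0.12 with quantile normalization (15 of 20 higher in each), so no direction can be given for them. The distance between the medians of the groups was 1.55, and scaling by a constant per array cannot move it. It ranged from 1.42 to 1.60 over the 4 of 11 other settings that gave another value, and from 1.24 to 1.92 with 1 array left out.

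Per array, the median shift of the macrophage-made genes from their STD means minus that of the hepatocyte-made genes was 0.17, -0.13, 0.23 and -0.20 on the STD arrays and 0.89, 0.40, 2.36 and 2.40 on the ATH arrays. The ATH arrays were all above the STD arrays, and ATH replicates 3 and 4 were far above replicates 1 and 2. The 3 detected genes of other sources had a median of -0.29.

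In liver tissue more cells of a type and more RNA per cell cannot be told apart, and marker genes of macrophages were higher on the same arrays as C1q and Cfp. Over all detected genes 33.8% were higher and 3.53% passed 5% as higher. Of 14 macrophage markers, 14 were detected, 13 were higher and 9 passed 5% as higher (6 with the replicate block), with a median difference of 1.74. Their summed signal, in units of the 75th percentile, was 111 to 133 on the STD arrays and 211 to 875 on the ATH arrays. Their median shift was 1.39, 0.58, 2.28 and 2.45 on ATH replicates 1 to 4, and the C1q chains shifted by 0.79 to 0.95, 0.44 to 0.46, 2.10 to 2.22 and 2.24 to 2.33. ATH replicate 2 was lowest and replicate 4 highest in both. The 75th percentile before scaling had the same order, at 9.27, 9.11, 9.42 and 9.46 on ATH replicates 1 to 4. Markers differed among themselves. Clec4f, a Kupffer cell lectin, differed by 0.32 and Cd163, a haemoglobin scavenger receptor and the 1 marker that was lower, by -1.33, neither past the threshold. Cd5l rose by 1.69 and Marco by 3.43, both past 5% by limma (adjusted p = 0.0090 and 0.0352), and Timd4 by 0.94 (adjusted p = 0.0528).

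Other cell types were also read. The shares over all detected genes were 33.8% higher and 66.2% lower, with 3.53% past 5% as higher and 5.24% as lower. Of 10 neutrophil markers 9 were detected, 8 were higher and none passed 5% by limma (2 higher and 1 lower had an unadjusted p under 0.05, and 2 passed with the replicate block), and their summed signal was 1.93 to 3.99 on the STD arrays and 3.51 to 15.5 on the ATH arrays. Of 11 stellate and mesenchymal markers all were detected and higher, also under the 6 other scalings and background corrections, and 2 passed 5% (1 with the block). Their median difference was 0.59, their median shift was 0.45, 0.48, 1.01 and 0.75 on ATH replicates 1 to 4, and their summed signal was 63.6 to 69.6 on the STD arrays and 91.2 to 129.5 on the ATH arrays. Of 12 lymphocyte markers, all detected, 10 were higher (7 to 11 under those alternatives) and none passed 5% by limma, with 5 higher and 1 lower at an unadjusted p under 0.05. Their shift was 0.54, -0.12, 1.26 and 0.74 on the ATH replicates, and their summed signal was 2.09 to 2.57 on the STD arrays and 1.85 to 6.95 on the ATH arrays. Of 7 endothelial markers, all detected, 5 were higher (5 to 7 under the 6 other scalings and background corrections) and 1 passed 5% with and without the block, with a median of 0.26 and a summed signal of 19.2 to 26.5 on the STD arrays and 19.9 to 31.4 on the ATH arrays. Of 18 detected hepatocyte markers 17 were lower, 3 of them past 5% (1 with the block), with a median of -0.34 that turned to 0.11 with no scaling and 0.04 with quantile normalization, and with a summed signal of 6179 to 6460 on the STD arrays and 4144 to 5606 on the ATH arrays. Most detected markers on the neutrophil, stellate, lymphocyte and endothelial lists were thus higher on the ATH diet. Past 5% by limma as higher were 2 of 11 stellate and 1 of 7 endothelial markers, and none of the neutrophil or lymphocyte markers, where all genes gave 3.53%. Of these lists only the stellate list had summed signals that did not overlap. The part of these cell types in the complement values was not tested.

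**Figure D4:**
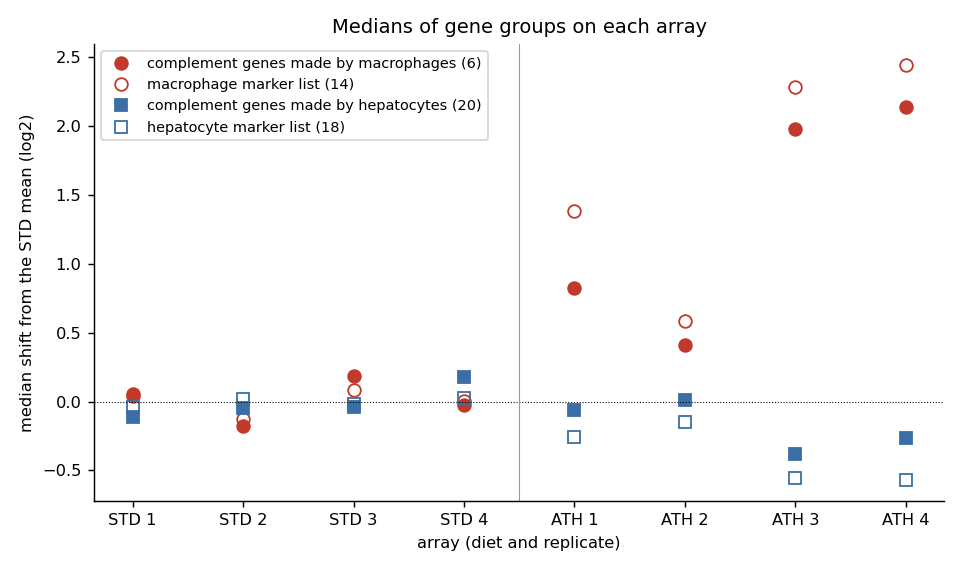
For each array the vertical axis gives the median, over the genes of a group, of the scaled log2 signal minus the STD mean. The macrophage-made complement genes (filled circles) and the macrophage markers (open circles) are both highest on ATH replicates 3 and 4 and lowest among ATH arrays on replicate 2, and the hepatocyte-made genes and hepatocyte markers (squares) lie between -0.57 and 0.18.

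Of 31 further complement genes, listed from general knowledge, 27 were detected, 13 were higher and 14 lower, with a median of -0.14 that turned to 0.31 with no scaling, 0.17 with spike-in scaling and 0.15 with quantile normalization. Of these 3 passed 5% as higher and 1 as lower, against the 3.53% and 5.24% of all genes given above. Cd93, coding for a surface protein once taken for a C1q receptor, measured 0.07, 0.50, 0.59 and 0.38 on the STD arrays and 1.33, 1.15, 1.77 and 1.72 on the ATH arrays. It rose by 1.11 ± 0.18 (adjusted p = 0.0172, and 0.0372 with the replicate block), while its dimmer probe gave 0.26.

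Itgb2, the beta chain shared by complement receptors 3 and 4, measured -1.31, -1.50, -1.22 and -1.19 on the STD arrays and 0.62, -0.76, 2.09 and 2.34 on the ATH arrays. It rose by 2.38 ± 0.60 (adjusted p = 0.0469, and 0.0548 with the block). Itgax, the alpha chain of receptor 4, rose by 3.91 ± 0.80 at its brighter probe (adjusted p = 0.0288), from -3.77 to -3.23 on the STD arrays to -2.18 to 1.88 on the ATH arrays, but a second probe gave -0.38 ± 0.18, so the probes disagree. Itgb2 and the brighter Itgax probe showed the order of ATH arrays seen in C1q, with replicate 2 lowest and replicate 4 highest. The second Itgax probe did not, as it measured -3.26, -3.10, -3.41 and -2.81 on ATH replicates 1 to 4.

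Susd4, coding for a membrane protein that restrains convertases, was the 1 gene of the list that passed as lower. It measured 3.67, 3.54, 3.42 and 3.85 on the STD arrays and 2.05, 2.24, 1.11 and 1.10 on the ATH arrays, with no overlap. It fell by 1.99 ± 0.28 on the log2 scale, 3.97-fold (adjusted p = 0.0102, and 0.0366 with the block), and was lower by 1.54 to 1.92 under 5 other scalings and background corrections.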

How the data were processed

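The authors hybridized Cy3-labelled liver RNA to Agilent whole mouse genome arrays and deposited Agilent Feature Extraction output (version 9.5 per the labels, 9.5.3.1 per the file headers) with spot intensity values, corrected for background and spatial trend and with no scaling from array to array. They also deposited log2 values from GeneSpring, whose scaling and baseline the sources used here do not give. These served as an alternative.

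Control and outlier spots were left out, spots of a probe were averaged, log2 was taken and each array's 75th percentile subtracted. A probe was detected if well above background, positive and free of outlier marks on at least 3 arrays of a diet. A gene was read from its brightest probe, by the mean over 8 arrays. Diets were compared with limma 3.58.1 in R 4.3.3 (lmFit, eBayes, two-sided, Benjamini-Hochberg over all 31063 detected probes, threshold 5%). The limma fit was tested on simulated data. Summaries used Python 3.11.15, numpy 2.4.6, pandas 2.3.3 and scipy 1.17.1, and plots matplotlib 3.10.9.

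All 31 members are named, with full values for those past the threshold and for those whose diets did not overlap or that the text compares. The other complement genes are named only where they passed. The members, lists and tests were chosen with earlier results of these data known. Arrays sharing a replicate number share a slide position, and same-numbered arrays deviated together from their diet means (correlations of 0.10 to 0.23 over probes), so a fit with that number as a block was run. Alternatives covered scaling, background correction, filter, probe choice, test, threshold, block and each array left out. Probes are placed by the array design's assembly, mm7. Only 4 arrays per diet limit the precision.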

Additional observations from a re-analysis of the deposited data

Results flagged for a closer look

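On the STD diet 3 values stood apart from the other 3 of their group by Dixon's test at the 95% level. They were C1s on replicate 4 (5.62, the others 5.26 to 5.32), Cfb on replicate 4 (8.67, the others 8.25 to 8.30) and C3ar1 on replicate 3 (-2.68, the others -3.94 to -3.77). No ATH group gave such a value. Among 58 groups tested, chance alone gives about 1 in 20.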

How the results depend on the processing

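Most reversals among the 21 alternatives came where the arrays were scaled in another way or not at all. With no scaling, C1ra became 0.35, C2 0.24, C3 0.049, C4b 0.41, C4bp 0.28, C5ar1 0.32, C6 0.28, C8g 0.20, C9 0.38, Cd59a 0.16, Cfd 0.11, Cfi 0.21, Hc 0.15, Masp1 0.17, Masp2 0.058 and Mbl2 0.053. With spike-in scaling, C1ra became 0.21, C2 0.099, C4b 0.28, C4bp 0.15, C5ar1 0.19, C6 0.15, C8g 0.063, C9 0.25, Cd59a 0.019, Cfi 0.079, Hc 0.017 and Masp1 0.029. With quantile normalization, C1ra became 0.18, C2 0.097, C3 0.070, C4b 0.28, C4bp 0.18, C5ar1 0.16, C6 0.073, C8g 0.063, C9 0.12, Cfi 0.11 and Hc 0.12. Median scaling turned C4b to 0.042 and C9 to 0.0094, the percentile over spots turned C8a to -0.025, the mean of detected probes turned C1s to -0.070 and normexp turned C3ar1 to -0.035. With each array left out in turn, the ranges that crossed 0 were C1s -0.0067 to 0.11, C4b -0.15 to 0.13, C5ar1 -0.62 to 0.17, C8a -0.19 to 0.12, C9 -0.24 to 0.067 and Cfd -0.61 to 0.19.

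The median of the hepatocyte-made genes reversed to 0.26 with no scaling, 0.12 with spike-in scaling and 0.12 with quantile normalization, and that of the other 3 genes moved to 0.16 with no scaling and 0.019 with spike-in scaling, and ranged from -0.30 to 0.19 with an array left out.

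Members called higher and lower numbered 1 and 1. They were 9 and 0 with no scaling, 4 and 0 with spike-in scaling, 2 and 0 with median scaling, 1 and 0 with quantile normalization, 2 and 1 with the percentile over spots and with the mean of detected probes, 4 and 4 with normexp, 0 and 1 with the deposited values, 3 and 2 on probes detected on all 8 arrays, and 0 and 0 with no filter, with the methods' t-test (4 higher and 5 lower at an unadjusted p under 0.05), at 1% and with the replicate block (5 and 4 at an unadjusted p under 0.05 for each of no filter, 1% and the block). With an array left out they ranged from 0 to 4 and from 0 to 2, above 0 only without ATH replicate 2. Over all probes the block gave 1322 calls, against 2482 without it.

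Other complement genes called higher and lower numbered 3 and 1. The first was 9 with no scaling, 7 with spike-in scaling, 2 with the replicate block and 0 with the methods' t-test and at 1%, and the second was 2 with the percentile over spots, on probes detected on all 8 arrays and with the replicate block, 4 with normexp and 0 with the methods' t-test and at 1%. With an array left out they ranged from 0 to 3 and from 1 to 2. The cause of these changes was not tested.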
